A study of Rattus norvegicus with 3 samples.

Results

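The genes described here encode the enzymes that dispose of superoxide and hydrogen peroxide: the 3 superoxide dismutases (Sod1, Sod2, Sod3), catalase (Cat) and 6 glutathione peroxidases (Gpx1, Gpx2, Gpx3, Gpx4, Gpx7, Gpx8). They were chosen by gene symbol in the array annotation and grouped by where the enzyme works, and all 10 were among the 14217 genes measured, on 11 of 31099 probe sets (a probe set is a group of short probes read together). RNA came from soft tissue at the upper first molar of male wild-type Sprague Dawley rats, 9 weeks old at harvest, with 1 array per tissue. Peri-implant connective tissue (PICT) had healed for 4 weeks around a titanium alloy implant placed at once in the socket of a molar extracted at 5 weeks of age. Oral mucosal connective tissue (OMCT) came from a site where the molar had been extracted 4 weeks earlier and no implant set, and periodontal connective tissue (PCT) from around a natural first molar. The series' design text once says mice for PCT, while every sample label says rat. The labels do not say how many animals lie behind an array.

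Superoxide dismutases turn superoxide into hydrogen peroxide, and catalase and the glutathione peroxidases then reduce the peroxide to water. Sod1 works in the cytosol, Sod2 in the mitochondrial matrix, and Sod3 is secreted and held on the heparan sulphate of matrix and vessel walls. Gpx1, Gpx2, Gpx3 and Gpx4 carry selenocysteine at the active site, whereas Gpx7 and Gpx8 carry cysteine and sit in the endoplasmic reticulum (ER), where they use peroxide made during disulphide bond formation. Gpx3 is the secreted peroxidase of plasma and extracellular fluid.

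No array was replicated, so no test between tissues was possible, no p-value is given, and the number of arrays limits the precision of every value. In the order PICT, PCT, OMCT, the median intensity was 56.5, 34.3 and 57.4, and the 3' to 5' ratio of control probes, a gauge of RNA shortening, was 1.12, 1.46 and 1.20 for Gapdh and 1.58, 2.80 and 1.97 for Hk1, highest in PCT for both. Unless "as deposited" is written, a difference is a relative log2 difference: log2(intensity + 8.56) with each array's median subtracted. The log2 medians themselves differed by 0.60 in PICT minus PCT, 0.62 in OMCT minus PCT and -0.02 in PICT minus OMCT. Subtracting them therefore lowered every difference against PCT by about 0.6 and hardly moved those between PICT and OMCT. PICT minus OMCT is thus the comparison that does not rest on the dimmer PCT array. Probe sets of the same gene differed in these values with an SD of 0.49 in each comparison (4525 genes with several probe sets), the only measure of spread here. A gene is called higher or lower at a difference of at least 1 (2-fold), with the brighter array at or above its own median. Of the members, 9 had 1 probe set, so no second set of probes checks their values. All 7 measured epithelial markers exceeded the highest negative control on every array, and their intensities summed to 32666, 35325 and 24606 in the same order, so the RNA was not of connective tissue alone. All 10 fibroblast markers did so too, with sums of 27986, 21707 and 45172; sums of different probes are not comparable between lists.

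The promoters of 8 of the 10 members could be matched in RefSeq's table for build GRCr8, and 4 are printed. Gpx3 and Gpx7 were both far lower in PICT than in OMCT. Gpx2 and Sod2 passed the 2-fold rule in no comparison. They are printed as the only members matched with the core of the antioxidant response element, the motif through which Nrf2 acts. Each printed sequence runs 5′ to 3′ over the 250 bases before the annotated start, on the gene's own strand. Capitals mark matches on either strand to the antioxidant response element core TGACNNNGC, the GC box GGGCGG, the CCAAT box CCAAT or the TATA box TATAAA.
Gpx3 (chr10:39529085-39529334, plus strand): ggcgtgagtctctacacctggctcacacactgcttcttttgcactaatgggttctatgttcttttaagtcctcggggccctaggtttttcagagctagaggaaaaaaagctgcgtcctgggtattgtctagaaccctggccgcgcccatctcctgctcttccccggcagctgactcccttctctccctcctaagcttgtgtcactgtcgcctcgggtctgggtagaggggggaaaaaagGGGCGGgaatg
Gpx7 (chr5:128381726-128381975, minus strand): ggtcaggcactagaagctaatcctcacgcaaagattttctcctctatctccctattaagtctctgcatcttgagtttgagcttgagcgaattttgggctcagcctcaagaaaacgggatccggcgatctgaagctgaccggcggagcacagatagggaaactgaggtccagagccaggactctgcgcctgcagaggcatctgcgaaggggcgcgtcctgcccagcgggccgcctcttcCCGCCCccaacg
Gpx2 (chr6:101230034-101230283, minus strand): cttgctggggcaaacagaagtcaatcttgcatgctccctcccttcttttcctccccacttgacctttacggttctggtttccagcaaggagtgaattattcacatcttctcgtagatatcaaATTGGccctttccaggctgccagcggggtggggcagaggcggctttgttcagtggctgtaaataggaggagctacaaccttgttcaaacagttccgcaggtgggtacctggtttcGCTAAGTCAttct
Sod2 (chr1:50050169-50050418, minus strand): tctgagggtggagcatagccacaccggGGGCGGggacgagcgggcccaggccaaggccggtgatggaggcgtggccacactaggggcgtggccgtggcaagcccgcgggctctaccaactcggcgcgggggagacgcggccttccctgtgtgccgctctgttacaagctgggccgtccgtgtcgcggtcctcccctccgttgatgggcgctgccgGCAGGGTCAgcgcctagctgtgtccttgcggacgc
The Gpx3 and Gpx7 windows each held 1 GC box, close to the start (last base 6 and 7 bases before it), and no match to the other motifs. The antioxidant response element core lay 5 to 13 bases before the start of Gpx2 and 27 to 35 bases before that of Sod2, both on the opposite strand. Over 33469 promoters of the table, 10.1% held that core in the same window, 30.5% a GC box, 34.0% a CCAAT box and 12.9% a TATA box. Among the 8 members matched, 2 held the core, 6 a GC box, 4 a CCAAT box and 1 (Sod1) a TATA box. These counts take a gene as holding a motif if any of its windows did, whereas the percentages are per window. Gpx4 had several windows, not all with a match. A match describes the letters only, and binding was not measured in these samples.

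The 2 extracellular enzymes, of which Sod3 is named in the series title, were the members called lower in PICT than in both other tissues. Sod3 read 19.4 around the implant, 75.2 around the tooth and 169 at the healed site. The implant tissue was lowest, and within its own array Sod3 lay at percentile 29.6 of all probe sets, against 66.8 in PCT and 73.8 in OMCT. The relative difference was -2.19 against PCT and -2.65 against OMCT, that is 4.55-fold and 6.26-fold lower. As deposited the differences were smaller against PCT, at -1.58, and -2.67 against OMCT. The plain intensity ratios, with no scaling and nothing added, were 3.89 for PCT over PICT and 8.72 for OMCT over PICT. Only 0.295% of all genes had a lower value in PICT minus PCT and 0.225% in PICT minus OMCT. PCT and OMCT were closer to each other: OMCT minus PCT was 0.46, within the spread between probe sets, and 1.08 as deposited. Because Sod3 is dim in PICT, the size depends on the added constant: with the median intensity (48.4) in place of 8.56 the differences were -1.21 and -1.67.

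Gpx3 followed the same order of tissues at a brighter signal. Its intensity was 332 around the implant, 755 around the tooth and 1907 at the healed site, at percentiles 86.5, 97.1 and 98.7 of the arrays. PICT was again lowest, at -1.77 against PCT (-1.17 as deposited) and -2.47 against OMCT (-2.49 as deposited), that is 3.41-fold and 5.55-fold lower. OMCT exceeded PCT by 0.70, and by 1.33 as deposited, where it passes the 2-fold rule, as Sod3 does. In bulk tissue, fewer cells of a type and less RNA per cell cannot be told apart.

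Both extracellular members were thus lower in PICT than in PCT, where 3.37% of all 14217 genes were called lower, and both were lower in PICT than in OMCT, where 4.46% were. Their median difference was -1.98 and -2.56, against -0.13 and -0.04 over all genes. With 2 genes, chosen with such values already known, these shares are a description.

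**Figure D1:**
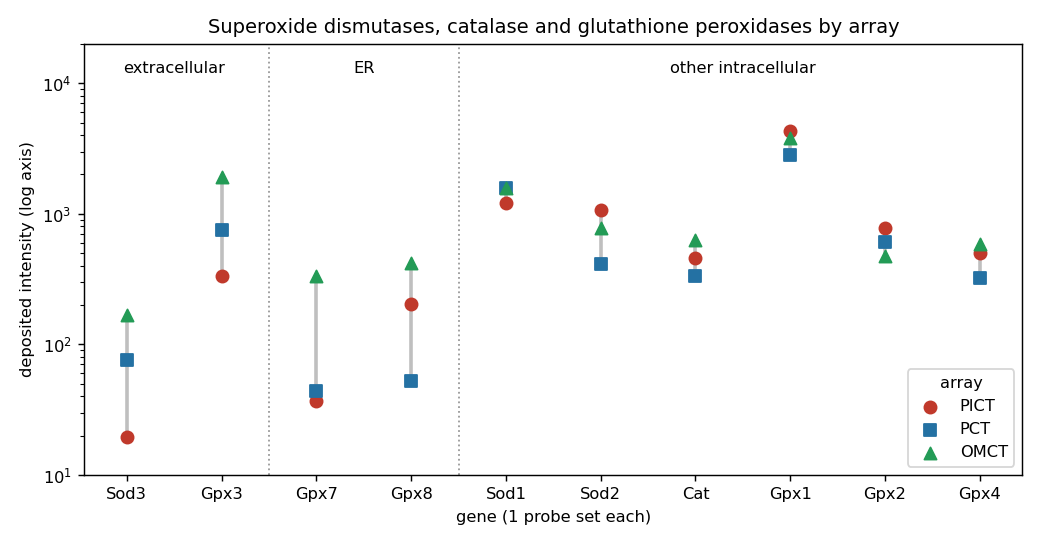
Deposited intensity (vertical log axis) of each member's probe set on the PICT, PCT and OMCT arrays, 1 array per tissue, with grey bars joining the lowest and highest array. Sod3, Gpx3, Gpx7 and Gpx8 span wide ranges, from 19.4 to 169 for Sod3, Sod2 runs from 409 to 1066, and the arrays lie closer together for Sod1, Cat, Gpx1, Gpx2 and Gpx4.

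The 2 ER peroxidases were highest in the healed extraction site. Gpx7, which passes oxidising equivalents from peroxide to protein disulphide isomerases, read 37.1 around the implant, 43.5 around the tooth and 333 at the healed site. PICT and PCT were both near the middle of their arrays (percentiles 41.1 and 55.1) and OMCT stood well above them (percentile 86.0). The PICT minus OMCT difference of -2.88, a fold of 7.38, was the widest of any member at this added constant (with the median intensity added, Gpx3 at -2.35 was wider than Gpx7 at -2.15), and OMCT minus PCT was 2.09. PICT minus PCT was -0.79 and -0.19 as deposited, short of the 2-fold rule either way.

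Gpx8, a membrane-anchored ER peroxidase, was split differently. It read 202 around the implant, 52.8 around the tooth and 422 at the healed site, so here the natural tooth site was lowest and PICT lay in between. Gpx8 was higher in PICT than in PCT by 1.18 (1.78 as deposited, and 0.96, short of the rule, with the median intensity added) and higher in OMCT than in PCT by 2.19. Against OMCT, PICT was lower by only just the 2-fold rule, at -1.01, and 4 of the alternatives (-0.90 to -0.99) left it short. The ER pair therefore agreed in OMCT minus PCT, with values of 2.09 and 2.19, and parted in the comparisons that involve PICT: Gpx7 less Gpx8 was -1.97 in PICT minus PCT and -1.87 in PICT minus OMCT, a gap between genes that centring the arrays does not alter. Both were called higher in OMCT than in PCT, where 5.66% of all genes were, and Gpx8 alone among the 10 members was called higher in PICT than in PCT, where 3.98% were.

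**Figure D2:**
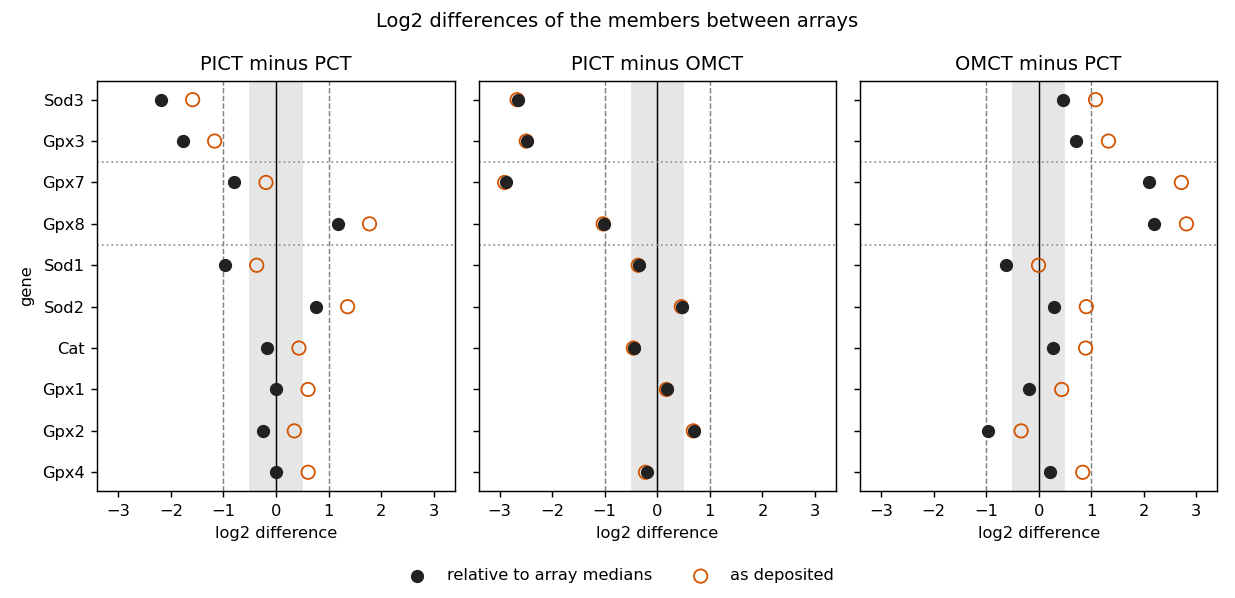
Log2 difference (horizontal axis) of each member in the 3 comparisons, relative to the array medians (filled) and as deposited (open). Grey bands show the SD of 0.49 between probe sets of 1 gene, dashed lines the 2-fold rule, and dotted lines part the extracellular, ER and other intracellular members. Sod3 and Gpx3 lie left of the dashed line in both comparisons of PICT, and Gpx7 and Gpx8 right of it in OMCT minus PCT.

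None of the 6 other intracellular members passed the 2-fold rule in any comparison. Within each comparison that was the usual outcome. Of all 14217 genes, 13172 were called in neither direction in PICT minus PCT, 12993 in PICT minus OMCT and 12728 in OMCT minus PCT. The values of these 6 members ran from -0.97 to 0.76 in PICT minus PCT and from -0.44 to 0.70 in PICT minus OMCT. In OMCT minus PCT they ran from -0.96 to 0.28. Their medians were -0.08, -0.01 and 0.01, beside -0.13, -0.04 and -0.08 over all genes. All of them were bright, at percentile 90.6 or above on every array.

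Sod1 and Sod2, the cytosolic and mitochondrial dismutases, leaned in opposite directions around the implant. Sod1 read 1218 around the implant, 1573 around the tooth and 1569 at the healed site. PICT was lowest, at -0.97 against PCT and -0.34 against OMCT, and as deposited these were -0.37 and -0.36. Sod2, the dismutase known to be induced by inflammatory cytokines, read 1066, 409 and 774 in the same order. It was highest in PICT, by 0.76 over PCT (1.36 as deposited, which passes the 2-fold rule, as 14.1% of all genes then do in that direction) and by 0.48 over OMCT, the latter within the spread between probe sets. Set against each other, Sod1 less Sod2 was -1.73 in PICT minus PCT and -0.82 in PICT minus OMCT. Sod3 less Sod2 was -2.95 and -3.12 in the same comparisons and 0.18 in OMCT minus PCT, so the balance of extracellular to mitochondrial dismutase transcript differed between PICT and either other tissue and hardly between OMCT and PCT.

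Catalase, the peroxisomal enzyme, read 457 around the implant, 335 around the tooth and 630 at the healed site. Its differences of -0.17, -0.44 and 0.27 (PICT minus PCT, PICT minus OMCT, OMCT minus PCT) all lay within the spread between probe sets. Gpx1, the abundant cytosolic and mitochondrial peroxidase, read 4290, 2807 and 3804, at percentile 99.6 or above on each array. Its differences were 0.01, 0.19 and -0.19, so relative to the array medians it varied least of all members together with Gpx4. As deposited the Gpx1 differences were 0.61, 0.17 and 0.44, and Sod1 varied least, at -0.37, -0.36 and -0.003. Gpx4, which reduces lipid peroxides within membranes, had 499, 323 and 584 on its brighter probe set, with differences of 0.01, -0.21 and 0.21. The other Gpx4 probe set was at 7.83, 4.73 and 4.58 and did not exceed the highest negative control in PICT (8.36) or PCT (5.71), so its values there are not above background.

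Gpx2, the peroxidase of epithelial linings, was the only member whose deposited intensity was lowest in OMCT. It read 774 around the implant, 606 around the tooth and 479 at the healed site, which gave -0.25 for PICT minus PCT, 0.70 for PICT minus OMCT and -0.96 for OMCT minus PCT (-0.33 as deposited). The 7 epithelial markers had medians of -0.85, 0.73 and -1.14 in these comparisons, and 7 markers of the upper epithelial layers -0.26, 3.52 and -3.48. In PICT minus OMCT the 7 epithelial markers were split, from -2.10 for Krt15 to 1.59 for Cdh1. Of them 3 were called higher, 1 lower and 3 neither. The part of either list in the Gpx2 values was not tested. The signs of Cat and Gpx2 in PICT minus PCT, and of Gpx1 in OMCT minus PCT, turn when the arrays are taken as deposited.

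**Figure D3:**
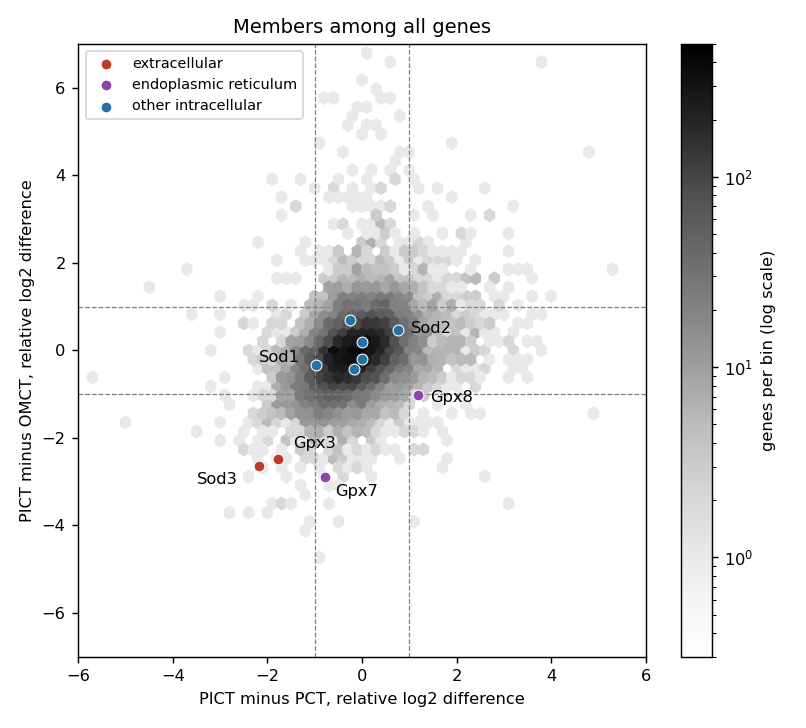
Each gene's relative log2 difference in PICT minus PCT (horizontal) against PICT minus OMCT (vertical), with all 14217 genes as grey bins on a log colour scale and the members as coloured points. The axes share the PICT array, so the slope of the cloud is no result. Sod3 and Gpx3 lie at the lower left, Gpx7 at the lower edge of the cloud, Gpx8 at the lower right, and the other intracellular members near its centre.

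Over the whole family 4 members passed the 2-fold rule in at least 1 comparison and 6 in none. The share of all genes passing in at least 1 comparison was not counted. In PICT minus PCT 1 member was higher and 2 were lower, where 3.98% and 3.37% of all genes were. In PICT minus OMCT 0 were higher and 4 lower, where 4.15% and 4.46% of all genes were. In OMCT minus PCT 2 were higher and 0 lower, where 5.66% and 4.81% of all genes were. As deposited, 4 members were higher in OMCT than in PCT, where 17.6% of all genes were. Among pairs of enzymes with a like reaction, Gpx3 less Gpx1 was -1.78 in PICT minus PCT, -2.67 in PICT minus OMCT and 0.89 in OMCT minus PCT, and Sod3 less Sod1 was -1.22, -2.30 and 1.09. The 2 extracellular genes differed little from each other: Sod3 less Gpx3 was -0.42, -0.17 and -0.24.

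The genes whose pattern over the 3 arrays lay nearest to each called member were sought among the 7109 genes at or above the median mean level, by Euclidean distance between log2 profiles after each gene's own mean was subtracted. Nearest to Sod3 was Fam107a, at a distance of 0.11, with intensities of 45.3, 147 and 298 (PICT, PCT, OMCT). Gpx3 itself came next at 0.30 and then Plvap, found in the diaphragms of capillary pores, at 0.31. The nearest to Gpx3 were Aqp1 (a water channel) at 0.25, Antxr1 at 0.29 and Fam107a at 0.29. Gpx7 lay nearest to Mxra8 at 0.17, Cgref1 at 0.22 and Bgn (the matrix proteoglycan biglycan) at 0.29, and Gpx8 to Cdh11 (a cadherin of mesenchymal cells) at 0.090, Tmem119 at 0.096 and Rgs18 at 0.096. With 3 arrays a profile has few ways to vary, so many genes lie close to any other.

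Genes that serve these enzymes were followed in 6 lists. Copper supply matters because Sod1 and Sod3 are copper enzymes. Of 8 measured genes 1 was called higher in PICT than in PCT, Atp7a, the pump that loads copper onto secreted enzymes including Sod3. Its intensities were 820, 259 and 432 (PICT, PCT, OMCT), a difference of 1.03 from PCT and 0.93 from OMCT, so it was highest where Sod3 was lowest. The list median was 0.17, -0.17 and 0.34 in PICT minus PCT, PICT minus OMCT and OMCT minus PCT, and 0 genes were called in the latter 2 comparisons. As deposited 2 were higher in PICT minus PCT and 3 in OMCT minus PCT, so these counts changed with the centring.

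Selenium supply and selenoprotein synthesis bear on the selenium enzymes Gpx1 to Gpx4. Of 12 genes 1 was lower in PICT than in PCT and 0 higher, and against OMCT 2 were lower and 1 higher, while OMCT minus PCT had 0 called. As deposited 1 was higher (Secisbp2, at 1.10) and 0 lower in PICT minus PCT, and 3 were higher in OMCT minus PCT. Selenop, the plasma selenium carrier, read 543 around the implant, 784 around the tooth and 1141 at the healed site. By deposited intensity the order was that of Gpx3 and Sod3. The relative differences were -1.12 and -1.04 for PICT minus PCT and PICT minus OMCT, and -0.09 for OMCT minus PCT, where Gpx3 and Sod3 were above 0. As deposited, PICT minus PCT was -0.52. Eefsec, the elongation factor that delivers selenocysteine, was lower in PICT than in OMCT (difference -1.27), whereas Secisbp2, which binds the selenocysteine insertion element, was higher by 1.03. The list medians were -0.04, -0.07 and -0.06.

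Glutathione is the electron donor of most of the peroxidases. Of 11 genes for its synthesis and reduction 1 was higher and 2 were lower in PICT than in PCT, 2 were higher and 0 lower than in OMCT, and in OMCT minus PCT 0 were higher and 2 lower. As deposited 2 were higher and 1 lower in PICT minus PCT, and 1 higher and 2 lower in OMCT minus PCT. Slc7a11, the cystine importer, was brightest around the natural tooth, at 1333, against 401 around the implant and 194 at the healed site. Its differences were -2.31, 1.03 and -3.35, and its partner chain Slc3a2 was also lower in PICT than in PCT, at -1.52 (-0.92 as deposited). Ggt5, which cleaves glutathione conjugates outside the cell, was higher in PICT than in PCT by 1.05. Ggt1, the main gamma-glutamyl transferase, was higher in PICT than in OMCT by 1.32 and lower in OMCT than in PCT, at -1.63.

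The peroxiredoxins, peroxidases that use thioredoxin in place of glutathione, had 5 measured genes. Prdx5 alone was called, higher in PICT than in PCT by 1.08. It read 3803 around the implant, 1178 around the tooth and 2133 at the healed site, the order of Sod2. As deposited 2 peroxiredoxins were higher in PICT than in PCT and 2 in OMCT than in PCT. In ER oxidative folding, the setting of Gpx7 and Gpx8, 0 of 11 genes were called in either comparison of PICT, with medians of -0.05 and -0.03. Between OMCT and PCT, Pdia5, a disulphide isomerase, was higher by 1.66 and Qsox1, a secreted sulphydryl oxidase, lower at -1.02 (-0.40 as deposited), around a median of 0.00. At this added constant Gpx7 and Gpx8, at 2.09 and 2.19, stood above every gene of that list in OMCT minus PCT. That place depends on the constant, because Pdia5 read 61.7 in OMCT and 5.84 in PCT, where the highest negative control was 5.71. By plain intensity ratio of OMCT over PCT, Pdia5 exceeded Gpx7 (7.65) and Gpx8 (7.99). Peroxisome import and oxidases, the setting of catalase, had 0 of 11 genes called in any comparison (as deposited, 1 higher in PICT minus PCT and 1 in OMCT minus PCT), with medians of -0.08, -0.01 and -0.16; Hao1 and Hao2 did not exceed the highest negative control in PICT or PCT, nor did Dao in PCT.

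**Figure D4:**
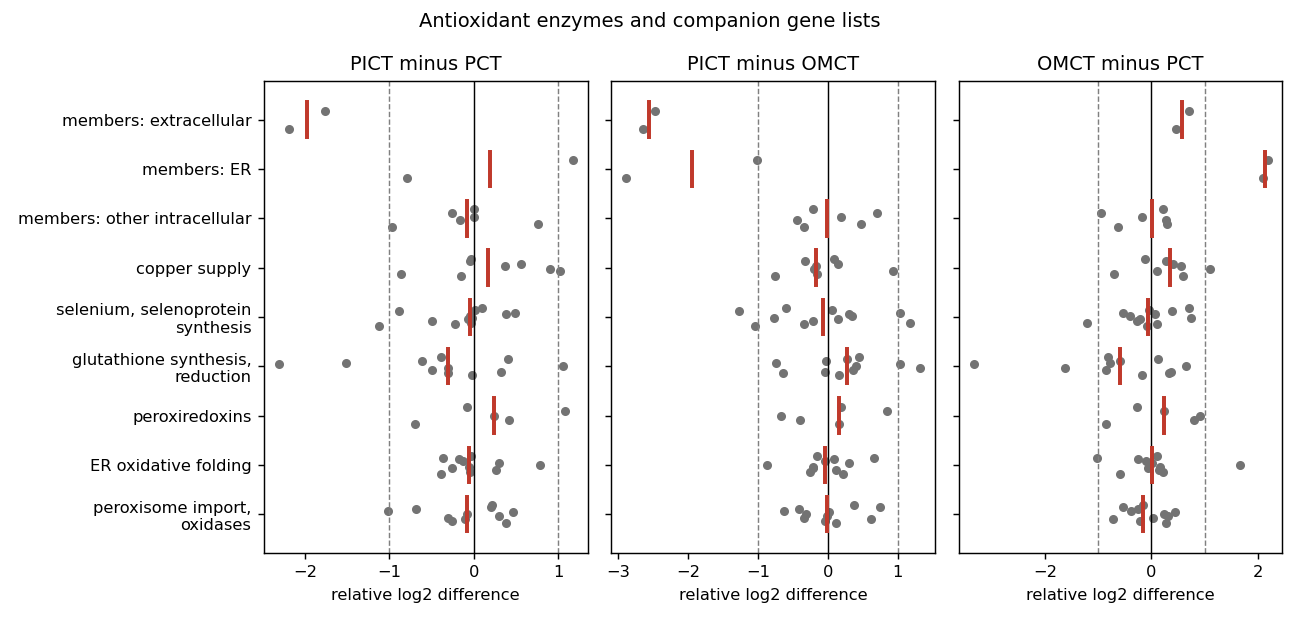
Relative log2 difference (horizontal axes, which differ between panels) of every measured gene of the members' 3 compartments and of the 6 companion lists, with red bars at list medians and dashed lines at the 2-fold rule. The companion medians lie between -0.59 and 0.34, while the extracellular members sit at -1.98 and -2.56 in the comparisons of PICT and the ER members at 2.14 in OMCT minus PCT.

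Endothelial markers (7 measured) had medians of -1.16 in PICT minus PCT, -1.31 in PICT minus OMCT and 0.04 in OMCT minus PCT, with 4, 4 and 0 genes called lower and 0 higher. PICT was thus lowest by median, as it was for Sod3 and Gpx3, whose differences were wider than those of every endothelial marker but Plvap in PICT minus PCT (-2.26) and than all 7 in PICT minus OMCT, where Plvap was at -2.30 (Cldn5 came closest to Gpx3 in PICT minus PCT, at -1.76). As deposited the endothelial median in PICT minus PCT was -0.55. Their intensities summed to 2045, 2367 and 3647 (PICT, PCT, OMCT), and none was at or below the negative controls. Low values in PICT were not particular to endothelium. Osteoblast markers (4 measured) were also lowest in PICT by median, at -1.26 against PCT and -0.89 against OMCT. Of these, 3 and 2 were called lower and 0 and 1 higher. Erythroid and skeletal muscle markers were not lowest in PICT, with medians of 0.64 and 0.21 in PICT minus OMCT. Fibroblast markers (10 measured) had medians of -0.08, -0.96 and 1.29, with 1, 0 and 7 called higher and 1, 5 and 0 lower. Like the macrophage markers described below, they were highest in OMCT by median, as Gpx7 and Gpx8 were. In PICT minus PCT the fibroblast markers ran from -1.90 for Dpt, a dermal matrix protein, to 1.29 for Lum, a collagen-binding proteoglycan. The part of these cell types in the members' values was not tested.

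Smooth muscle markers had medians of 0.26, 0.02 and -0.14 over 6 genes, with 0 called in either comparison of PICT and 1, Myh11, lower in OMCT than in PCT at -1.30 (-0.67 as deposited). Their intensities summed to 1212, 817 and 1169, and Lmod1 did not exceed the negative controls on any array. Their part in the Sod3 values was not tested. Of 8 adipocyte markers, the defining Adipoq, Plin1, Cidec and Lep were at or below the negative controls in PICT and between 2.38 and 11.0 elsewhere. Plin1 and Lep did not exceed the negative controls in PCT. In OMCT, where the highest negative control was 3.60, only Lep did not. The intensities of the list summed to 838, 187 and 997, mostly from Lpl and Fabp4, which macrophages also express. Of 10 macrophage markers, 7 were higher in PICT minus PCT (median 2.38) and 2 lower in PICT minus OMCT (median -0.43). In OMCT minus PCT 9 were higher (median 2.69), so by median they were highest in OMCT and lowest in PCT, as Gpx8 was. Of 4 neutrophil markers, 3 and 4 were higher in PICT minus PCT and PICT minus OMCT (medians 1.53 and 1.80), beside the Sod2 values of 0.76 and 0.48. In OMCT minus PCT the signs differed: the neutrophil median was -0.25, with 1 higher and 2 lower, and Sod2 was 0.28. The part of these cells in Sod2, Gpx7 and Gpx8 was not tested.

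**Figure D5:**
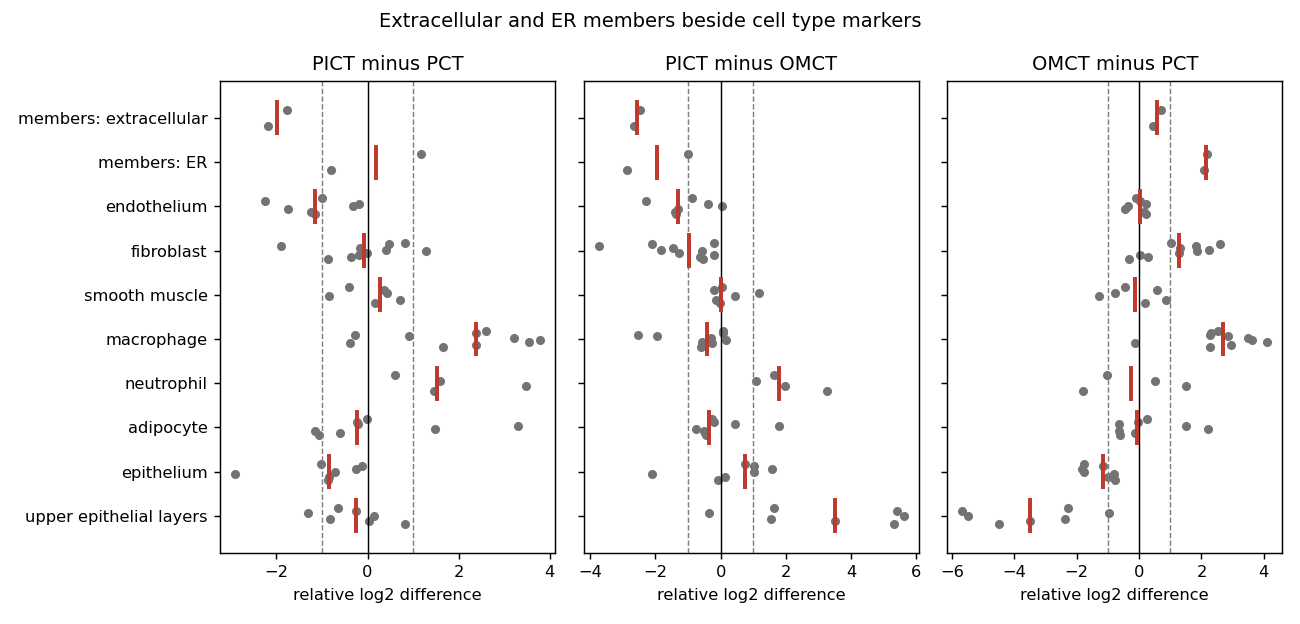
Relative log2 difference (horizontal axes, which differ between panels) of the extracellular and ER members and of each measured marker gene by cell type, with red bars at medians and dashed lines at the 2-fold rule. Osteoblast, erythroid and skeletal muscle markers are not drawn. The endothelial median lies on the side of the extracellular members in both comparisons of PICT (-1.16 and -1.31). In OMCT minus PCT the fibroblast and macrophage medians lie on the side of the ER members (1.29 and 2.69).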

How the data were processed

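Per the labels' protocols, total RNA of laser-microdissected tissue (RNeasy) was labelled with biotin by a GeneChip 3' IVT Express kit, so signal weakens away from the 3' end of a transcript. The authors deposited linear intensities, 1 per probe set, from 0.0124 to 13104. Probe summary, background correction and scaling are not given in the sources used here.

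Gene names came from the platform annotation of 2016: 20832 probe sets had 1 symbol, 436 several and 9831 none, and all 10 members matched the RefSeq table by gene ID and symbol. A gene was read from its brightest probe set by mean log2 value. Values are log2(intensity + 8.56), the 20th percentile of all values, minus the array's median. Calls need a difference of at least 1 and a brighter array at or above its median. No test was run, with 1 array per group. Technical spread is the pooled SD of differences between probe sets of 1 gene.

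The rule for named genes took all members, the called genes of 6 companion lists (at most 3 per list, comparison and direction) and the 3 nearest profiles of each called member; cell type markers named beside them were picked after their values were seen. Members and lists were chosen with earlier results of these data known. Listed genes without a probe set of their own were not analysed here. Other scalings, added constants, probe rules and level rules were tried. The calling rule was run on simulated arrays without noise, with large changes in bright genes only. Such a run checks the code and cannot show the rate of false calls on these arrays or for dim genes. Python 3.11.15, numpy 2.4.6, pandas 2.3.3 and matplotlib 3.10.9 were used.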

Additional observations from a re-analysis of the deposited data

How the results depend on the processing

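No paired analysis was possible because each tissue has 1 array and no replicate numbers, and for the same reason no array could be left out within a group. Of the 9 called member differences, none changed sign under the other scalings, added constants or probe rule tried. As deposited, without centring, 9 were kept and 3 gained: members higher were 2 in PICT minus PCT and 4 in OMCT minus PCT, and the extracellular, ER and other intracellular medians were -1.38, 0.79 and 0.52 in PICT minus PCT and 1.20, 2.76 and 0.64 in OMCT minus PCT. All genes higher and lower were then 2009 and 128 in PICT minus PCT and 2501 and 298 in OMCT minus PCT, against 566 and 479, and 805 and 684, with centring. Centred on 18 hybridisation control probe sets, the counts were 1264 and 177, and 1575 and 388, with 2 members higher in PICT minus PCT. In OMCT minus PCT 3 members were then higher, as Gpx3 (1.09) joined Gpx7 and Gpx8. With the median intensity added, 0 members were higher in PICT minus PCT, the extracellular medians were -1.32 against PCT and -2.01 against OMCT, genes lower in PICT minus PCT were 130, genes in PICT minus OMCT 352 (higher) and 375 (lower) (590 and 634 otherwise), and genes lower in OMCT minus PCT 333. With 1 added, 1 member (Gpx2, at -1.07) was lower in OMCT than in PCT, and Sod1 (-1.07) joined Sod3 and Gpx3 as lower in PICT than in PCT. Without the level requirement, 945 genes were lower in PICT minus PCT and 1163 in OMCT minus PCT. Gpx8 in PICT minus OMCT lost its call under 4 alternatives: 75th percentile centring (-0.98), hybridisation controls (-0.99), quantile normalization (-0.98) and the median intensity added (-0.90), which also ended its call in PICT minus PCT (0.96). The cause of these shifts was not tested. Signal limits Sod3 in PICT, at 19.4 against a highest negative control of 8.36, and the dim Gpx4 probe set.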
